A study of Mus musculus with 8 samples.

Results

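The MYC and MAX network is a family of 10 genes, Myc, Mycn, Mycl, Max, Mga, Mnt, Mxd1, Mxi1, Mxd3 and Mxd4, which were taken by gene symbol from a table of 21812 symbols. All 10 were measured in every library and passed the filter on low values, as did 13578 symbols in all. RNA came from mouse embryonic stem cells in a primitive endoderm induction medium (primitive endoderm being an extraembryonic lineage of the blastocyst). There were 4 groups of 2 libraries each, labelled WT and cKO for Mettl3 and WT and cKO for Virma. Mettl3 encodes the enzyme, and Virma a large adaptor, of the nuclear methyltransferase that places N6-methyladenosine (m6A) on messenger RNA. The labels give only WT or cKO beside each gene name, and the deleted exons, Cre driver and number of clones are not stated in them.

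MYC proteins bind DNA only as partners of MAX, and the pairs recognise a short palindrome called the E-box and raise transcription of genes for ribosome production, nucleotide synthesis and cell growth. The MXD proteins and MNT compete for the same partner and the same sites and bring in the SIN3 histone deacetylase complex, which lowers transcription. MGA also pairs with MAX, and it carries in addition a T-box domain and nucleates a polycomb complex that keeps germline genes silent in embryonic stem cells. In these cells Myc and Mycn are known to act redundantly in growth and self-renewal.

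Because MAX dimers bind the E-box CACGTG, which reads the same on both strands, the promoters of the network genes themselves were searched for it. The windows, from RefSeq on GRCm38.p6, run from 250 bases before to 50 bases after a gene's start. Of 9 members with a window, 3 held the motif, against 8.09% of the 27025 genes with a window. These are the stretches of Mxd4, Mnt and Max that lead up to the motif and end with it, shown because they place it within the network, 5′ to 3′ on the gene's strand with the E-box in capitals.
Mxd4, chr5:34187924-34187960, minus strand: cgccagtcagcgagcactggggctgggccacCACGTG
Mnt, chr11:74830751-74830806, plus strand: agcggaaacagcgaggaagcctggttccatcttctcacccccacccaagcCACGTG
Max, chr12:76962246-76962301, minus strand: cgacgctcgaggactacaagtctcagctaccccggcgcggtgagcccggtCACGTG
The motif began 219 bases before the start of Mxd4, 123 bases before that of Mnt and 3 bases before that of Max. A match of letters is a description and shows no binding.

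Levels are given as normalised CPM, estimated reads scaled to a common total by trimmed means. The deposited values were gene counts multiplied by 1 factor per library and rounded, so reads were estimated by dividing the factor out. Estimated depth was 6702000 and 6200000 reads (Mettl3 WT), 17619000 and 15995000 (Mettl3 cKO), 26313000 and 25015000 (Virma WT) and 22975000 and 22285000 (Virma cKO). Precision was therefore lowest in the Mettl3 WT libraries, and depth moved with the Mettl3 comparison; its part in the results was not tested. Tests were made with limma on log2(CPM + 0.5), which understates the change of low genes, and a gene was called at a Benjamini-Hochberg adjusted p under 0.05 over all genes tested. Fold changes are on that scale and carry their SE. SEs and p-values rest on the spread between the 2 libraries of a group, pooled over the 4 groups. For each gene it is drawn towards a trend shared by all genes, so it is not that gene's own spread alone. The labels name no separate cultures, so this spread may be technical.

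Mettl3 itself stood at 35.4 and 34.9 CPM (Mettl3 WT) and at 35.4 and 33.9 CPM (Mettl3 cKO), and was not called (log2 fold change −0.02 ± 0.08, limma adjusted p = 0.877). Virma was at 94.0 and 89.3 CPM in Virma WT and at 70.9 and 73.8 CPM in Virma cKO, and fell by 0.34 ± 0.04 on the log2 scale. Mettl3 also fell in the Virma line, from 46.2 and 44.5 CPM in Virma WT to 34.1 and 33.5 CPM in Virma cKO (−0.42 ± 0.05, limma adjusted p = 3.24e-11). A value per gene cannot reveal a deleted exon, so the labels remain unchecked, and directions here are between libraries labelled cKO and WT. Pluripotency markers were present throughout. Summed over 10 genes they stood at 2047 and 2065 CPM (Mettl3 WT) and at 2016 and 2072 CPM (Mettl3 cKO). In the Virma line the sum was 2118 and 2158 CPM (Virma WT) and 1380 and 1391 CPM (Virma cKO). Pou5f1 lay between 310.4 and 628.2 CPM and was lowest in Virma cKO. Of the 10 genes 5 rose and 4 fell in Mettl3 cKO, and 2 rose and 8 fell in Virma cKO. Of all genes tested 26.9% rose and 26.2% fell in Mettl3 cKO, and 36.9% rose and 36.0% fell in Virma cKO. Primitive endoderm markers summed to 10710 and 10730 CPM (Mettl3 WT), 7025 and 7026 CPM (Mettl3 cKO), 8586 and 8607 CPM (Virma WT) and 1615 and 1627 CPM (Virma cKO). Fibroblast markers summed to 216 and 233 CPM, 407 and 411 CPM, 521 and 524 CPM, and 1170 and 1178 CPM in the same groups, with Lum under 1 CPM in Mettl3 WT. Of these lists 11 of 12 endoderm markers fell and 13 of 15 fibroblast markers rose in Mettl3 cKO, and 12 of 12 and 15 of 15 did so in Virma cKO. Of 8 trophectoderm markers tested 2 rose and 3 fell in Mettl3 cKO and 4 rose and 2 fell in Virma cKO, with Elf5 under 1 CPM in every group. The trophectoderm shares called, 62.5% and 75.0%, were near the 53.1% and 72.9% of all genes. Endoderm and fibroblast markers thus moved with both knockout comparisons. They also differed between the control groups. In Virma WT against Mettl3 WT 14 of 15 fibroblast markers were higher and 1 lower, and 2 of 12 endoderm markers were higher and 7 lower. Of all genes 27.0% were higher and 20.7% lower there. The sums of pluripotency and trophectoderm markers changed mainly in Virma cKO. Trophectoderm means were 864, 848, 880 and 1155 CPM in the same order of groups. The part of all these markers in the results below was not tested. In bulk RNA fewer cells of a type and less RNA per cell cannot be told apart.

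The order of levels was taken per kilobase of exon, the only scale on which genes are compared here. Averaged over the 8 libraries Max was highest at 19.4 CPM per kilobase, followed by Mycn at 16.9, Myc at 15.5, Mga at 13.8 and Mnt at 8.75. Mycl (4.00), Mxi1 (3.85) and Mxd3 (3.79) formed a lower tier, and Mxd1 (1.39) and Mxd4 (1.31) were lowest. The first 4 overlapped over the libraries, with Mycn from 7.28 to 23.3 CPM per kilobase and Myc from 10.4 to 19.4, so their order is that of the means only. The same held within the tier of Mycl, Mxi1 and Mxd3 and between Mxd1 and Mxd4. Mnt, between 6.96 and 9.84 CPM per kilobase, lay above the 5 lower genes in every library. Measured by the longest transcript in place of all exons, the first 5 kept their order, while Mxd3 (6.77 CPM per kilobase) moved above Mxi1 (5.21) and Mycl (4.62), and Mxd4 (2.87) above Mxd1 (2.11).

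**Figure D1:**
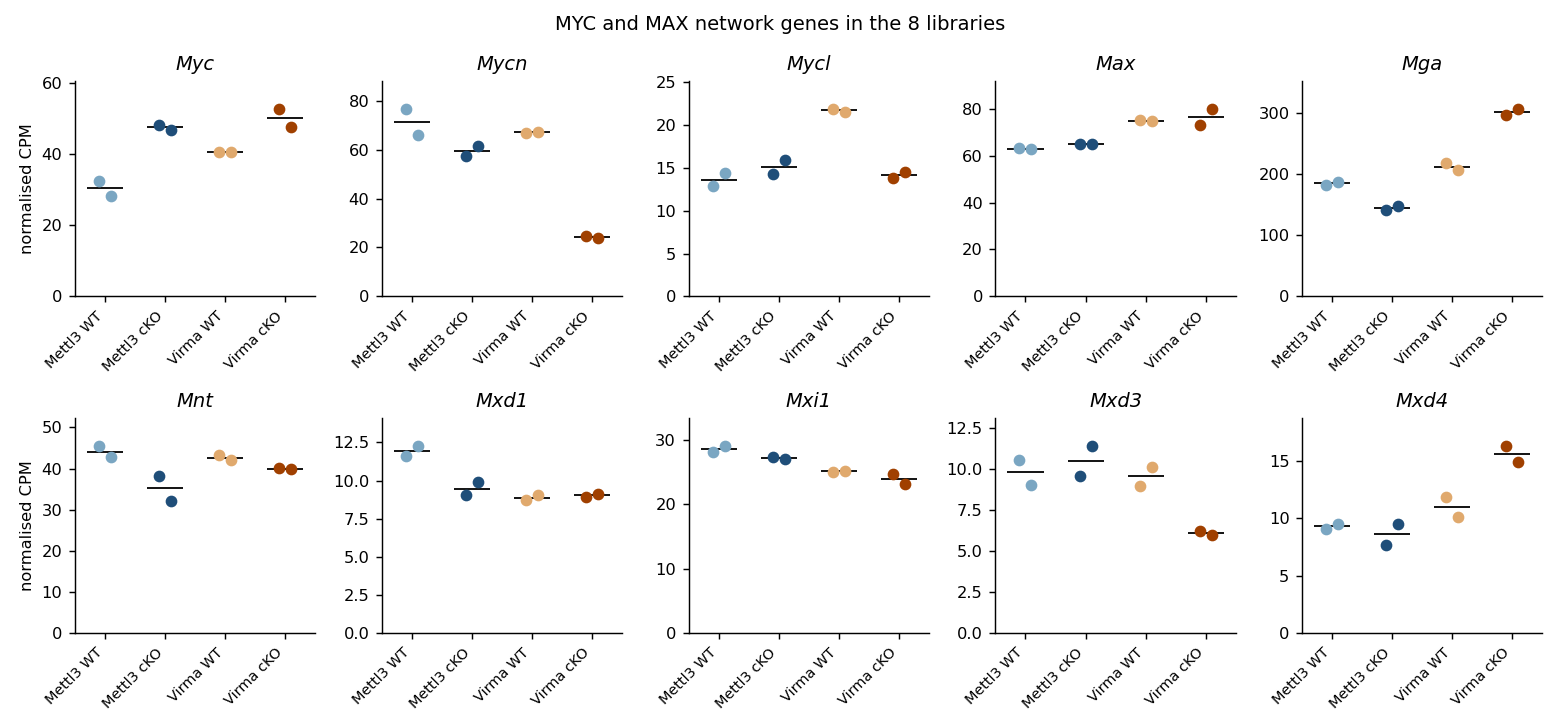
Normalised CPM of each network gene (vertical axis, from 0) in the 2 libraries of each group (points), with the group mean as a line. Mycn in Virma cKO, at 24.7 and 24.0 CPM, lies below all other libraries, and Mga in Virma cKO, at 296.4 and 306.8 CPM, above them.

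The balance between Myc and Mycn shifted the same way in both lines, with Myc higher and Mycn lower in the libraries labelled cKO. The fall of Mycn was deep in Virma cKO and shallow in Mettl3 cKO, and Mycl fell in Virma cKO, with a called difference between the lines. In Mettl3 cKO 5 of the 10 members were called, 1 higher and 4 lower, where 53.1% of all genes were called. Without replicate 1 of Mettl3 WT, and with a trend in gene length and GC content removed, 3 were called, 1 higher and 2 lower. In Virma cKO 6 of 10 were called, 3 higher and 3 lower, where 72.9% of all genes were called. Both shares are near those of all genes, so the counts do not set the network apart.

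Myc, the founding member, was at 32.5 and 28.3 CPM (Mettl3 WT), 48.3 and 47.0 (Mettl3 cKO), 40.6 and 40.6 (Virma WT) and 52.8 and 47.8 (Virma cKO). Both cKO groups lay above their own WT libraries, and Mettl3 WT lay lowest of all. Myc rose 1.56-fold in Mettl3 cKO (log2 fold change 0.64 ± 0.09, limma adjusted p = 3.74e-09) and 1.24-fold in Virma cKO (0.30 ± 0.05, limma adjusted p = 1.36e-07). Against the Virma WT libraries as control the Mettl3 cKO value was 0.23, still called, and Myc was higher in Virma WT than in Mettl3 WT by 0.41 ± 0.09 (limma adjusted p = 5.85e-05). The effects in the 2 lines differed by −0.33 (limma adjusted p = 0.00466), which was not called with scaling by total count (−0.21, limma adjusted p = 0.0748), without replicate 2 of Mettl3 WT (−0.24, limma adjusted p = 0.117) or with the length and GC trend removed (−0.15, limma adjusted p = 0.213).

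Mycn, which encodes N-MYC, was at 76.7 and 66.0 CPM (Mettl3 WT), 57.3 and 61.5 (Mettl3 cKO), 67.0 and 67.2 (Virma WT) and 24.7 and 24.0 (Virma cKO). The Virma cKO libraries stood far below the other 6, whereas those of Mettl3 cKO lay just under their WT. In Virma cKO Mycn fell 2.72-fold (−1.44 ± 0.06, limma adjusted p = 7.53e-38). In Mettl3 cKO it fell 1.20-fold (−0.26 ± 0.07, limma adjusted p = 0.000385), which was not called with replicate 1 of Mettl3 WT left out (−0.15, limma adjusted p = 0.15) and larger after removal of a trend with gene length and GC content (−0.43). The 2 effects differed by −1.18 ± 0.09 (limma adjusted p = 1.13e-20), a comparison in which 49.7% of all genes were called.

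Mycl, which encodes L-MYC, was at 12.9 and 14.4 CPM (Mettl3 WT), 14.3 and 15.9 (Mettl3 cKO), 21.9 and 21.6 (Virma WT) and 13.8 and 14.6 (Virma cKO). Virma WT was the group that stood apart, and the other 3 groups overlapped. Mycl fell by 0.60 ± 0.07 on the log2 scale in Virma cKO (limma adjusted p = 2.36e-11), and had a log2 fold change of 0.14 ± 0.13 in Mettl3 cKO that was not called (95% interval −0.12 to 0.40). The difference of the effects was −0.74 ± 0.15 (limma adjusted p = 2.38e-05). Virma WT exceeded Mettl3 WT by 0.66 ± 0.12, and against Virma WT the value of Mettl3 cKO turned to −0.52.

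Summed per kilobase, Myc, Mycn and Mycl together gave 38.4 and 34.0 CPM per kilobase (Mettl3 WT), 38.7 and 39.9 (Mettl3 cKO), 40.7 and 40.7 (Virma WT) and 30.3 and 28.5 (Virma cKO). The sum was thus lowest in Virma cKO. Myc made up 30.9 ± 0.368% of it in WT and 44.6 ± 1.83% in cKO of the Mettl3 line, against 36.7 ± 0.0284% (WT) and 62.9 ± 1.57% (cKO) in the Virma line (SD, n = 2). Mycn made up 59.7 ± 1.19%, 45.9 ± 1.31%, 50.1 ± 0.0924% and 25.1 ± 0.596% in the same order. Myc was the larger of the pair in both Virma cKO libraries, Mycn in both libraries of each WT group, and in Mettl3 cKO the larger one changed between the 2 libraries. These shares restate the values of the single genes and were not tested. They rest on the length of all exons, and another measure of length could change which gene is the larger in Mettl3 cKO.

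**Figure D2:**
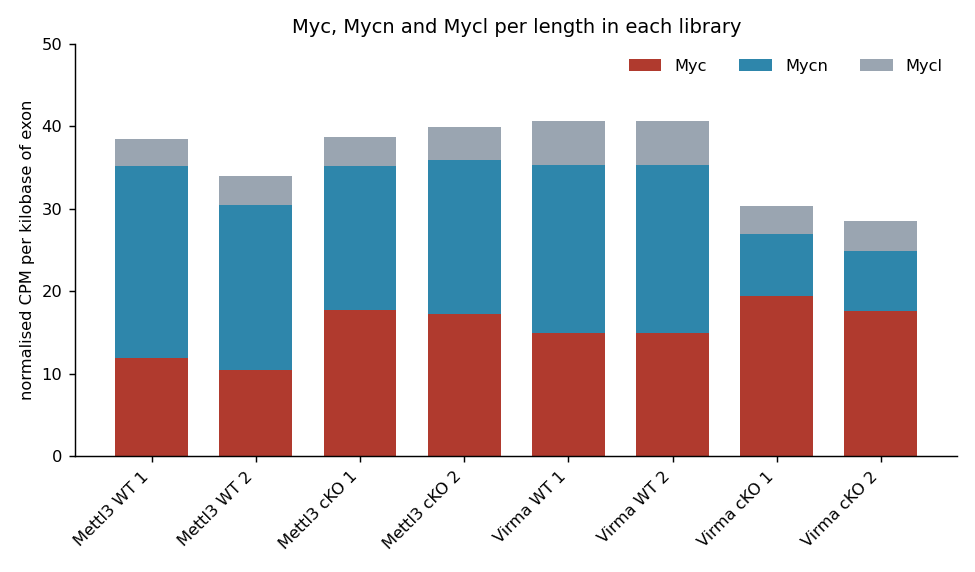
Stacked bars of Myc, Mycn and Mycl in normalised CPM per kilobase of exon (vertical axis, from 0) in each of the 8 libraries. The stack falls to 30.3 and 28.5 in Virma cKO, where Myc is its largest part.

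Max, the common partner, was at 63.2 and 62.9 CPM (Mettl3 WT), 64.9 and 65.0 (Mettl3 cKO), 75.1 and 74.8 (Virma WT) and 73.2 and 79.9 (Virma cKO). Its log2 fold change was 0.04 ± 0.07 in Mettl3 cKO (95% interval −0.09 to 0.18) and 0.03 ± 0.04 in Virma cKO (−0.05 to 0.11), and neither was called. Max was higher in Virma WT than in Mettl3 WT by 0.25 ± 0.06 (limma adjusted p = 0.000676). Against Virma WT the value of Mettl3 cKO was −0.20 and called. Scaled by total count, a setting that moved the median of all genes from 0.01 to 0.14, Max was called in Virma cKO at 0.16 (limma adjusted p = 0.000273).

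Mga, the MAX partner with a T-box domain, was the member called in both lines with opposite signs. It was at 181.8 and 188.0 CPM (Mettl3 WT), 142.2 and 148.6 (Mettl3 cKO), 217.7 and 207.6 (Virma WT) and 296.4 and 306.8 (Virma cKO). No groups overlapped. Mga rose 1.42-fold in Virma cKO (0.50 ± 0.03, limma adjusted p = 1.03e-27) and fell 1.27-fold in Mettl3 cKO (−0.35 ± 0.05, limma adjusted p = 4.06e-10), and the effects differed by 0.85 ± 0.05 (limma adjusted p = 3.28e-24). Its exons cover 15340 bases, more than those of any other member. After removal of a trend with gene length and GC content, the Mettl3 value shrank to −0.01 and lost its call (limma adjusted p = 0.91), and the difference shrank to 0.37. Against Virma WT the Mettl3 cKO value was −0.55.

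Mnt, the most abundant of the antagonists per kilobase, was at 45.5 and 42.7 CPM (Mettl3 WT), 38.1 and 32.2 (Mettl3 cKO), 43.3 and 42.1 (Virma WT) and 40.1 and 39.9 (Virma cKO). Mettl3 cKO was lowest. Mnt fell by 0.32 ± 0.08 on the log2 scale there (limma adjusted p = 0.000533), by 0.54 with the length and GC trend removed and by 0.21 without replicate 2 of Mettl3 cKO. In Virma cKO it stood at −0.09 ± 0.05 (limma adjusted p = 0.106), which was called with the same trend removed (−0.12, limma adjusted p = 0.0311). The difference of the effects, 0.23 ± 0.10 (limma adjusted p = 0.0415), was not called in 8 of 19 alternatives, among them each leaving-out of a Mettl3 WT library (limma adjusted p = 0.238 without replicate 1 and 0.0536 without replicate 2) and of replicate 2 of Mettl3 cKO (0.12, limma adjusted p = 0.367).

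Among the MXD genes, which encode the smaller antagonists, Mxd3 and Mxd4 moved in opposite directions in Virma cKO. Mxd3, known for expression in dividing cells, was at 10.6 and 9.02 CPM (Mettl3 WT), 9.57 and 11.4 (Mettl3 cKO), 8.96 and 10.1 (Virma WT) and 6.22 and 5.95 (Virma cKO). The Virma cKO libraries lay below all others, which overlapped. It fell 1.52-fold in Virma cKO (−0.60 ± 0.11, limma adjusted p = 8.48e-07) and stood at 0.08 ± 0.15 in Mettl3 cKO, where it was not called. The effects differed by −0.69 ± 0.19 (limma adjusted p = 0.0014), or by −0.43 with the length and GC trend removed, which was still called.

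Mxd4 was at 9.08 and 9.49 CPM (Mettl3 WT), 7.70 and 9.52 (Mettl3 cKO), 11.8 and 10.1 (Virma WT) and 16.3 and 14.9 (Virma cKO). Here the Virma cKO libraries lay above all others. Mxd4 rose 1.41-fold in Virma cKO (0.49 ± 0.09, limma adjusted p = 4.23e-07) and stood at −0.12 ± 0.16 in Mettl3 cKO, not called, or −0.34 and called against Virma WT. The effects differed by 0.61 ± 0.18 (limma adjusted p = 0.00436), which was not called with replicate 1 of Mettl3 cKO left out (0.46, limma adjusted p = 0.0501).

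Mxd1 was at 11.6 and 12.3 CPM (Mettl3 WT), 9.03 and 9.88 (Mettl3 cKO), 8.72 and 9.06 (Virma WT) and 8.94 and 9.11 (Virma cKO), so that Mettl3 WT was the group that stood higher. It fell by 0.33 ± 0.14 in Mettl3 cKO on the log2 scale, close to the threshold (limma adjusted p = 0.0451), and 8 of 21 alternatives did not call it, among them leaving out either Mettl3 WT library (limma adjusted p = 0.105 and 0.196) or replicate 1 of Mettl3 cKO (0.186). Against Virma WT the value was 0.08. In Virma cKO Mxd1 had a log2 fold change of 0.02 ± 0.10 (95% interval −0.17 to 0.21).

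Mxi1, the remaining MXD gene, was at 28.1 and 29.1 CPM (Mettl3 WT), 27.4 and 27.1 (Mettl3 cKO), 25.01 and 25.26 (Virma WT) and 24.8 and 23.2 (Virma cKO). It was not called in either line, at −0.07 ± 0.09 in Mettl3 cKO (95% interval −0.25 to 0.12) and −0.07 ± 0.06 in Virma cKO (−0.19 to 0.06). The antagonists together, Mnt with the 4 MXD genes, summed to 20.6 ± 0.692, 18.4 ± 0.159, 19.5 ± 0.0778 and 17.8 ± 0.372 CPM per kilobase in the groups in the same order (SD, n = 2). The ratio of the MYC genes to these antagonists was 1.82 and 1.69 (Mettl3 WT), 2.09 and 2.18 (Mettl3 cKO), 2.10 and 2.08 (Virma WT) and 1.68 and 1.62 (Virma cKO). It was thus higher in Mettl3 cKO than in its WT and lower in Virma cKO than in its WT. The ratio is a description with no test, and the Virma WT libraries lay at the level of Mettl3 cKO.

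**Figure D3:**
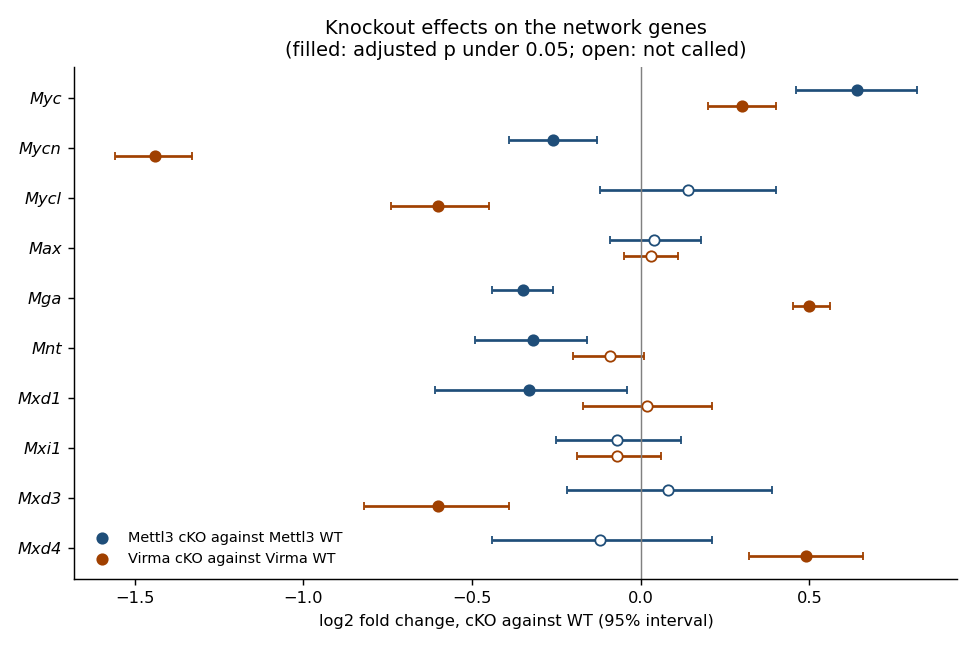
Log2 fold change of each network gene, cKO against WT (horizontal axis), with its 95% interval, in the Mettl3 line (blue) and the Virma line (brown), filled where the limma adjusted p is under 0.05. Mga lies at −0.35 in the Mettl3 line and at 0.50 in the Virma line, and Mycn in the Virma line, at −1.44, lies farthest from 0.

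The control libraries of the 2 lines also differed. Between Virma WT and Mettl3 WT 5 of 10 members were called, where 47.7% of all genes were. Myc, Mycl, Max and Mga (0.20 ± 0.04) were higher in Virma WT, as were 27.0% of all genes, and Mxd1 was lower (−0.41 ± 0.13), as were 20.7%. Mga was not called once the length and GC trend was removed (0.08, limma adjusted p = 0.0767) and Mxd1 was not called without replicate 2 of Mettl3 WT (−0.37, limma adjusted p = 0.0937). Line, depth and any difference of library kit cannot be told apart in these 4 libraries.

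Genes that MYC is known to activate, 46 genes fixed as a list of which 45 were tested, went different ways in the 2 lines. In Mettl3 cKO 19 rose and 11 fell, with a median log2 fold change of 0.09, where 26.9% of all genes rose, 26.2% fell and the median was 0.02. In Virma cKO 9 rose and 30 fell, with a median of −0.24, where 36.9% of all genes rose, 36.0% fell and the median was 0.01. The effect in Virma cKO was higher than that in Mettl3 cKO for 3 targets and lower for 35. Of all genes 22.1% were higher and 27.6% lower in that difference. The median difference was −0.38 for the targets against −0.02 over all genes. Against the Virma WT libraries Mettl3 cKO had 13 targets higher and 23 lower (median −0.07), while of all genes called there 49.6% were higher. Between the WT groups 30 targets were higher in Virma WT than in Mettl3 WT and 1 was lower, where 27.0% and 20.7% of all genes were. Scaled by total count, 14 targets rose and 24 fell in Virma cKO (median −0.11), while of all genes called there 64.9% were higher in place of 50.7%.

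Ldha, the lactate dehydrogenase of glycolysis, was at 687.2 and 688.4 CPM (Mettl3 WT), 505.7 and 494.1 (Mettl3 cKO), 749.4 and 750.9 (Virma WT) and 282.4 and 277.5 (Virma cKO). It fell in both lines, by 0.46 ± 0.03 and by 1.42 ± 0.03 on the log2 scale. Rrp9, which serves in ribosomal RNA processing, fell in Virma cKO from 104.4 and 102.4 CPM to 56.5 and 61.3 CPM (−0.81 ± 0.04) and stood at 0.09 ± 0.06 in Mettl3 cKO, not called, or −0.20 and called with the length and GC trend removed (limma adjusted p = 0.000866). Mrto4, a factor of ribosome assembly, rose in both, by 0.94 ± 0.05 in Mettl3 cKO and 0.44 ± 0.03 in Virma cKO, and so did Umps, of pyrimidine synthesis, by 0.93 ± 0.05 and 0.64 ± 0.03. The list therefore held genes that rose in both lines as well as the larger number that fell in Virma cKO.

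Of 12 genes known to be repressed by MYC together with MIZ1, 1 rose and 4 fell in Mettl3 cKO and 7 rose and 4 fell in Virma cKO, with medians of −0.12 and 0.15. The shares called were 41.7% and 91.7%, where 53.1% and 72.9% of all genes were. Without replicate 1 of Virma WT, and with no weights, 4 rose and 4 fell in Virma cKO, and with scaling by total count 2 fell. The cell cycle inhibitor Cdkn2b went from 5.53 and 5.34 CPM in Virma WT to 10.6 and 10.5 CPM in Virma cKO (0.90 ± 0.10) and stood at 0.10 ± 0.20 in Mettl3 cKO, not called. Cdkn1a, another inhibitor and a p53 target, rose by 0.64 ± 0.04 in Virma cKO and stood at 0.12 ± 0.07 in Mettl3 cKO, not called. Cdkn1c, an imprinted inhibitor, rose by 0.20 ± 0.08 in Virma cKO, not called with replicate 1 of Virma WT left out (0.16) or replicate 2 of Virma cKO (0.10). That call was also lost with no filter on low values and with no weights. In Mettl3 cKO Cdkn1c fell by 0.64 ± 0.10, a value that turned to 0.41 against Virma WT. Ndrg1, a stress-responsive gene, fell in both lines, by 1.5 ± 0.13 in Mettl3 cKO and 0.85 ± 0.07 in Virma cKO.

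**Figure D4:**
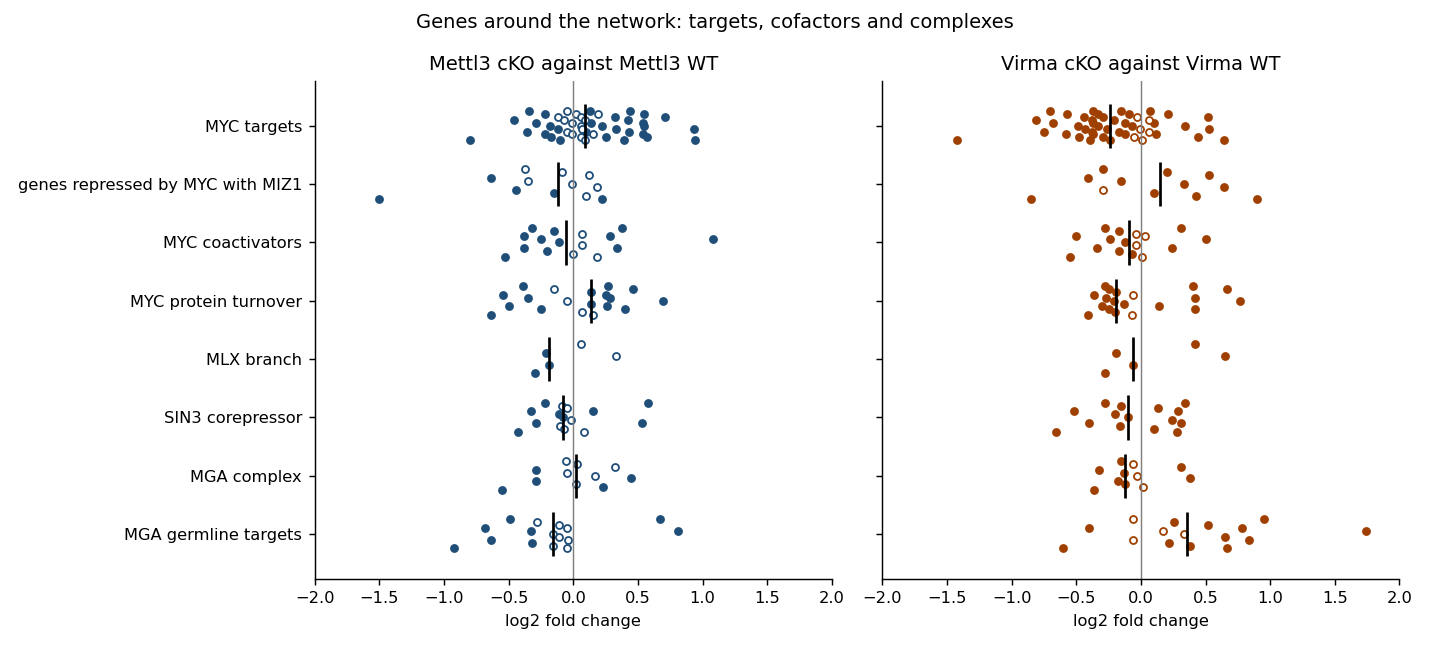
Log2 fold change (horizontal axis) of the genes of 8 lists around the network (points, filled where called by limma; vertical spread within a list has no meaning), with the median of each list as a line, in the Mettl3 line (left) and the Virma line (right). The median of the MYC targets lies at 0.09 on the left and at −0.24 on the right, and that of the MGA germline targets at −0.16 and 0.36.

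Of 18 germline genes known to be silenced by MGA and its polycomb complex 16 were tested, and 10 rose and 2 fell in Virma cKO (median 0.36), the group in which Mga itself was highest. In Mettl3 cKO 2 rose and 6 fell (median −0.16). Over all genes tested, 36.9% rose and 36.0% fell in Virma cKO, and 26.9% rose and 26.2% fell in Mettl3 cKO. The shares of the list called in Virma cKO and Mettl3 cKO were near the 72.9% and 53.1% called among all genes. The difference of the effects, Virma minus Mettl3, was called higher in 10 and lower in 0 of the 16, with a median of 0.83; of all genes 22.1% were higher and 27.6% lower in that difference. Taf7l, a germ cell TFIID subunit, was at 14.8 and 16.7 CPM (Mettl3 WT), 27.8 and 27.8 (Mettl3 cKO), 13.2 and 13.7 (Virma WT) and 44.8 and 47.6 (Virma cKO), and rose in both lines (0.81 ± 0.12 and 1.74 ± 0.07). In Virma cKO, and not in Mettl3 cKO against its own WT, a rise was called for Tdrkh, of the piRNA pathway (0.95 ± 0.09), the meiotic cohesin Stag3 (0.84 ± 0.06) and Sycp1 of the synaptonemal complex (0.78 ± 0.07), and in each the difference of the effects was called (0.99 ± 0.18, 0.95 ± 0.10 and 0.88 ± 0.15). Against Virma WT Stag3 in Mettl3 cKO was called higher as well (0.60, limma adjusted p = 1.86e-13). The Mettl3 calls on this list were 5 rather than 8 without either Mettl3 WT library or replicate 2 of Mettl3 cKO. They were 4, 1 higher and 3 lower, with the length and GC trend removed. Against Virma WT 7 were higher and 3 lower, while of all genes called there 49.6% were higher.

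The partners of MGA in that complex did not follow Mga as a group. Of 11 genes 2 rose and 3 fell in Mettl3 cKO, and 2 rose and 6 fell in Virma cKO, with medians of 0.02 and −0.12. These were 45.5% and 72.7% of the list, close to the 53.1% and 72.9% called among all genes. Cbx3, a reader of repressive histone methylation, fell in both lines (−0.55 ± 0.05 and −0.36 ± 0.04). E2f6, a repressor of the E2F family, rose in both (0.45 ± 0.09 and 0.38 ± 0.05), though its Mettl3 cKO value was −0.00 against Virma WT. L3mbtl2 rose by 0.23 ± 0.05 in Mettl3 cKO and fell by 0.32 ± 0.03 in Virma cKO, though against Virma WT the Mettl3 cKO value turned to −0.14. Ring1, a ubiquitin ligase of polycomb complexes, rose by 0.31 ± 0.10 in Virma cKO and stood at 0.32 ± 0.14 in Mettl3 cKO (limma adjusted p = 0.0545), a value called under several other settings and at 0.67 against Virma WT.

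In the SIN3 complex, through which MXD proteins and MNT act, 3 of 15 genes rose and 6 fell in Mettl3 cKO, and 7 rose and 8 fell in Virma cKO. Of all genes 26.9% rose and 26.2% fell in the first comparison and 36.9% and 36.0% in the second. The deacetylase Hdac1 was at 468.6 and 465.1 CPM (Mettl3 WT), 442.9 and 441.3 (Mettl3 cKO), 528.2 and 539.3 (Virma WT) and 334.2 and 340.8 (Virma cKO), so that it fell by 0.66 ± 0.02 in the Virma line. In the Mettl3 line it fell by 0.08 ± 0.03, a call lost without any 1 of the 4 Mettl3 libraries (limma adjusted p from 0.0709 to 0.161). The histone binder Rbbp4 fell in both (−0.33 ± 0.03 and −0.52 ± 0.03). Suds3 (0.58 ± 0.04 and 0.10 ± 0.03) and Ing2, a reader of histone methylation (0.53 ± 0.07 and 0.31 ± 0.05), rose in both, although Suds3 stood at 0.01 in Virma cKO with the length and GC trend removed.

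Of 16 cofactors of MYC 4 rose and 8 fell in Mettl3 cKO, and 3 rose and 9 fell in Virma cKO. The share called was 75.0% in each, against 53.1% and 72.9% of all genes. Cdk9, the kinase that releases paused RNA polymerase II, was at 88.8 and 100.2 CPM (Mettl3 WT), 200.1 and 198.5 (Mettl3 cKO), 113.3 and 117.7 (Virma WT) and 162.5 and 165.4 (Virma cKO). It rose by 1.08 ± 0.05 and 0.50 ± 0.03 on the log2 scale, while Ccnt2, a cyclin partner of it, fell in both (−0.53 ± 0.06 and −0.28 ± 0.04). Ccnt1, another cyclin partner, was called lower in Mettl3 cKO (−0.38) and higher in Virma cKO (0.24). Actl6a, an actin-related subunit of chromatin complexes, fell in both (−0.25 ± 0.05 and −0.55 ± 0.03), and the helicase Ruvbl2 fell in Virma cKO (−0.50 ± 0.03) and stood at 0.07 ± 0.04 in Mettl3 cKO, called without replicate 1 of Mettl3 cKO (0.13) and, with the sign turned, with the length and GC trend removed (−0.17, limma adjusted p = 2.97e-05).

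Among 19 genes that set the half-life of MYC proteins, 9 rose and 6 fell in Mettl3 cKO and 6 rose and 11 fell in Virma cKO, or 78.9% and 89.5% called against 53.1% and 72.9% of all genes. Pim1, a kinase that phosphorylates and stabilises MYC, rose in both lines, from 68.4 and 68.1 to 109.2 and 111.7 CPM in Mettl3 cKO (0.69 ± 0.06) and from 94.4 and 95.3 to 152.6 and 150.4 CPM in Virma cKO (0.67 ± 0.03). Gsk3b, whose product marks MYC for degradation, fell by 0.64 ± 0.07 in Mettl3 cKO and 0.13 ± 0.04 in Virma cKO. Its Virma call was lost with scaling by total count or with no weights. The same call was lost without replicate 1 of Virma WT (−0.11) or replicate 2 of Virma cKO (−0.09). The deubiquitinase gene Usp37 fell in both (−0.54 ± 0.07 and −0.20 ± 0.04), its Virma call lost with scaling by total count (−0.07). The ubiquitin ligase gene Trim32 rose in both (0.26 ± 0.11 and 0.77 ± 0.06). Its Mettl3 call was lost without either Mettl3 WT library or replicate 2 of Mettl3 cKO (0.21 to 0.26). That call was also lost with no filter on low values, the length and GC trend removed (0.15), median-of-ratios scaling or the deposited scaling. Against Virma WT the Mettl3 cKO value of Trim32 turned to −0.13. None of these values measures MYC protein.

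The parallel branch of the network uses MLX in place of MAX. Of its 5 genes 0 rose and 3 fell in Mettl3 cKO, and 2 rose and 3 fell in Virma cKO, where 3 in place of 5 were called without replicate 2 of Virma cKO. Over all genes 53.1% and 72.9% were called in these comparisons. Mlx was at 33.6 and 33.6 CPM (Mettl3 WT), 36.5 and 33.7 (Mettl3 cKO), 37.2 and 36.1 (Virma WT) and 30.4 and 29.8 (Virma cKO), a fall of 0.28 ± 0.06 in the Virma line that had no call in the Mettl3 line (0.06 ± 0.09). Mlxipl, its glucose-responsive partner, rose in Virma cKO (0.65 ± 0.10) and stood at 0.33 ± 0.15 in Mettl3 cKO (limma adjusted p = 0.0516), a value called under several other settings and at 0.92 against Virma WT. Txnip, a target of the branch that limits glucose uptake, fell in Mettl3 cKO (−0.30 ± 0.04). In Virma cKO it stood at −0.06 ± 0.03, close to the threshold (limma adjusted p = 0.0472). The Txnip call in Virma cKO was lost with no filter on low values, with the line fitted on its own, with the length and GC trend removed, with median-of-ratios scaling and with no weights. Its Mettl3 value turned to 0.17 against Virma WT. Its Virma value turned to 0.07 with scaling by total count and was not called without any 1 of the Virma libraries except replicate 2 of Virma WT. Arrdc4, a related target, fell by 0.21 ± 0.05 in Mettl3 cKO and rose by 0.42 ± 0.04 in Virma cKO, and its Mettl3 value turned to 0.51 against Virma WT.

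The complex studied methylates adenosine within a short consensus, and the letters GGACT were counted on the sense strand of the longest transcript of each member in GENCODE M21. Myc held 6 in 2338 bases, or 2.57 per kilobase, and Mxd3 held 3, or 2.26 per kilobase. Mga, the longest, held 8 in 13931 bases (0.574 per kilobase) and Mycn held 2 (0.748 per kilobase). Over 13466 coding genes the median was 1.05 per kilobase, with quartiles of 0.65 and 1.53, and 7 of 10 members lay above it. These counts are of letters, and no methylation was measured in these libraries.

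Finally, genes whose pattern over the 8 libraries was closest to those of Myc and Mycn were listed by the root mean square difference of centred log2 levels among 11015 genes, as a description. For Myc they were Sobp (0.041), Rspo1 (0.059), Sh3d21 (0.061), Gpr137b (0.066) and Trmt44 (0.068). Rspo1, a secreted amplifier of Wnt signalling, went from 4.69 and 3.91 CPM in Mettl3 WT to 7.95 and 6.91 in Mettl3 cKO, and from 5.83 and 5.64 in Virma WT to 7.73 and 7.05 in Virma cKO. For Mycn they were Esyt1 (0.076), Ctsc (0.076), Mical1 (0.085), Lrpap1 (0.087) and Fgfr3 (0.1). Lrpap1, a chaperone of lipoprotein receptors, was at 683.7 and 713.0 CPM (Mettl3 WT), 593.2 and 598.9 (Mettl3 cKO), 701.3 and 720.6 (Virma WT) and 258.8 and 259.0 (Virma cKO). Like Mycn it was lowest in Virma cKO and next lowest in Mettl3 cKO. Because it was selected by this pattern, the likeness is no separate result.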

How the data were processed

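TRIzol extracts of total RNA were made into libraries with kits of 2 makers, SMARTer Stranded (Takara) and VAHTS Universal (Vazyme), per the labels' protocols, which do not tie a kit to a library. The submitters' processing notes name STAR 2.7.11b, Subread, DESeq2, Trim Galore and FastQC 0.12.1, and the build mm39. They state no role for any tool, and neither annotation nor strand setting is stated.

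The deposited table is labelled as raw counts, but its values are a scaled signal: each column is gene counts multiplied by its own factor and rounded, with an upper quartile of 601.25 or 602 in all 8. Of the whole numbers from 1 to 200, 122 and 128 never occur in the Mettl3 WT columns. Factors between 0.658 and 2.76 were estimated from this pattern of occupied whole numbers and divided out to give estimated reads. A count test, as first planned, did not suit such values. In its place limma 3.58.1 in R 4.3.3 was fitted to log2(CPM + 0.5) of all 8 libraries and 4 groups, with trimmed-mean (TMM) scaling, weights from the estimated depth, a trended robust prior, and genes of at least 1 CPM in 2 libraries. The weights were chosen after the values were seen and after simulated data gave too many false calls without them. The members, the gene lists and the planned tests were chosen with earlier results of these data known.

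Replicate pairs differed by at least sampling noise on estimated reads (chi-square per degree of freedom from 1.07 in Mettl3 WT to 1.92 in Virma WT; 1.32 in Virma cKO), so all 8 libraries were kept separate. On simulated data 13336 to 13359 genes were tested, 4 sets per comparison. For Mettl3 50.5% of 1.3-fold and 93.5% of 2-fold changes were recovered with 5.15% of calls false. For Virma these were 74.5%, 99.0% and 4.67%. Each simulated set changed 200 genes, gave all genes the same dispersion and held no error of scaling. In the data 53.1% and 72.9% of all genes were called, so the false share among those calls is not known from the simulation.

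Named beside the members are Mettl3, Virma, up to 4 genes of each of 8 further lists with the largest called change (average log2 CPM no lower than 2), and the 5 genes most like Myc and Mycn. A few genes of the 4 marker lists are named for their levels. Ccnt1 is named as another cyclin gene beside Ccnt2, with its main values only. Lengths, GC content and transcripts are those of GENCODE M21 (GRCm38, not the submitters' build), matched by symbol for 21549 of 21812 symbols. Genes with antisense or overlapping partners are uncertain, since the strand setting is not stated. Alternatives changed the scaling, filter, pseudocount, weights, samples, block, length and GC trend, and the control libraries, and left out each library.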

Additional observations from a re-analysis of the deposited data

Results flagged for a closer look

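The limma test of the difference set the Virma cKO effect against the Mettl3 cKO effect (Virma minus Mettl3, log2 scale). A difference was called for 7 of 10 network genes, where 49.7% of all genes were called. The effect in Virma cKO was higher for Mga (0.85), Mxd4 (0.61) and Mnt (0.23), and lower for Mycn (−1.18), Mycl (−0.74), Mxd3 (−0.69) and Myc (−0.33). The call for Myc was lost in 3 of 19 alternatives, that for Mnt in 8 and that for Mxd4 in 1. Max, Mxd1 and Mxi1 showed no such call, apart from Mxd1 with scaling by total count (0.46). The targeted genes differed as well, Mettl3 by −0.40 and Virma by −0.44.

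Of the 32 genes named from other lists for the size of their change, 28 differed in the same test, against 49.7% of all genes. They were picked by their change in these same comparisons, which favours a called difference, so the shares cannot be compared. Among MYC targets the differences were −0.96 for Ldha, −0.89 for Rrp9, −0.50 for Mrto4 and −0.29 for Umps. Genes repressed by MYC with MIZ1 stood at 0.84 for Cdkn1c, 0.80 for Cdkn2b, 0.65 for Ndrg1 and 0.51 for Cdkn1a. Germline targets of MGA gave 0.99 for Tdrkh, 0.95 for Stag3, 0.94 for Taf7l and 0.88 for Sycp1, and its partners −0.55 for L3mbtl2 and 0.19 for Cbx3. In the SIN3 complex Hdac1 was at −0.58, Suds3 at −0.48, Ing2 at −0.22 and Rbbp4 at −0.20. Cofactors of MYC were at −0.57 for both Cdk9 and Ruvbl2, −0.30 for Actl6a and 0.25 for Ccnt2. Turnover genes were at 0.52 for Trim32, 0.50 for Gsk3b and 0.33 for Usp37, and the MLX branch at 0.62 for Arrdc4, 0.24 for Txnip and −0.34 for Mlx. Of these differences 6 lost their call in some setting. With scaling by total count it was lost for Ing2 (−0.10), Rbbp4 (−0.08) and Mlx (−0.22), and with the length and GC trend removed for Cbx3, Ccnt2, Ing2 (−0.18), Mlx (−0.19) and Usp37. Without replicate 2 of Mettl3 WT it was lost for Ccnt2 (0.19) and Ing2 (−0.15), without replicate 1 of Mettl3 WT (0.13) or replicate 2 of Mettl3 cKO (0.11) for Cbx3, and without replicate 1 of Mettl3 cKO (−0.20) or replicate 2 of Virma cKO (−0.19) for Ing2. No filter on low values ended the call for Cbx3 (0.19), and median-of-ratios scaling that for Ing2 (−0.19).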

How the results depend on the processing

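Each result was recomputed under 19 to 21 alternatives, 7 of the settings having been chosen after the values were seen: median-of-ratios scaling, the deposited scaling, pseudocounts of 0.1 and 2 CPM, no weights, weights per library, and the Virma cKO libraries as 1 sample. The 2 planned count-based alternatives (another tool and its size factors) were not run, since the values are not counts. With 2 libraries a group and estimated reads, small effects in the Mettl3 line, whose WT libraries are the shallowest, are the least certain. Among the network genes 725 recomputed effects kept direction and call, 23 lost the call, 9 gained it and 33 changed sign; those that changed sign were not called to begin with, except Mxd1 against Virma WT. For each value below the cause was not tested.

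Counts of called genes moved by over 1.5 times in few cases. Leaving out 1 library gave 3 to 5 network genes in Mettl3 cKO, 5 to 8 MGA germline targets there and 3 to 5 genes of the MLX branch in Virma cKO. After removal of a trend with gene length and GC content, 3 network genes and 4 germline targets were called in Mettl3 cKO. Against Virma WT 9 MGA partners and 8 genes repressed by MYC were called in Mettl3 cKO, in place of 5 and 5.

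Mettl3 cKO values that changed sign against Virma WT were Mycl −0.52, Max −0.20, Mxd1 0.08, Mxi1 0.12, Arrdc4 0.51, Txnip 0.17, Mlx −0.06, E2f6 −0.00, L3mbtl2 −0.14, Tdrkh 0.11, Stag3 0.60, Sycp1 0.01, Ruvbl2 −0.05, Trim32 −0.13, Rrp9 −0.07, Cdkn2b −0.05, Cdkn1c 0.41 and Cdkn1a −0.31. With the length and GC trend removed they were Mycl −0.02, Max −0.01, Mxd3 −0.17, Mxi1 0.06, Mlx −0.08, Tdrkh 0.13, Sycp1 0.23, Ruvbl2 −0.17, Rrp9 −0.20, Cdkn2b −0.19 and Cdkn1a −0.02, and in Virma cKO Mxd1 −0.01. Differences of the effects turned to 0.05 for Max, −0.10 for Cbx3, −0.15 for Ccnt2 and −0.04 for Usp37 in that setting.

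Scaling by total count turned Virma cKO values to 0.04 for Mnt, 0.06 for Mxi1 and 0.07 for Txnip, and the difference to 0.11 for Max and 0.12 for Mxi1. The difference for Max was 0.02 and for Mxi1 0.03 with median of ratios, and for Mxi1 0.01 with the deposited scaling and 0.00 with a pseudocount of 2 CPM, no weights or weights per library. Leaving out 1 library, Mettl3 cKO values spanned −0.00 to 0.19 for Cdkn2b, −0.03 to 0.21 for Mxd3, −0.23 to 0.13 for Tdrkh, −0.25 to 0.04 for Mxd4 and −0.05 to 0.01 for Mettl3. Virma cKO values spanned −0.01 to 0.05 for Mxd1 and −0.03 to 0.09 for Max. The difference spanned −0.08 to 0.05 for Max and −0.05 to 0.05 for Mxi1, and Virma WT against Mettl3 WT −0.19 to 0.03 for Mycn and −0.14 to 0.07 for Mxd3.

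Same-numbered libraries deviated together only weakly: over 5915 genes the correlation of deviations was 0.066 between Mettl3 WT and Mettl3 cKO and −0.034 between Virma WT and Virma cKO. The largest of the 6 pairs of groups was 0.256, between Mettl3 cKO and Virma WT, and 5 lay under 0.1, so the numbers are not taken to pair samples. With the replicate number as a block 7629 genes were called in Mettl3 cKO in place of 7213, 9917 in Virma cKO in place of 9901, 7057 for the difference in place of 6754, and 6821 between the WT groups in place of 6472. The network genes called stayed at 5, 6, 7 and 5 in number.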
